A study of Homo sapiens with 4 samples.

Results

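PRDM16 and 8 relatives of the PRDM family were examined in 786-O cells, a line derived from a human clear cell renal cell carcinoma that is known to lack functional VHL. The 9 genes were taken by name from a table of 56753 loci, and each matched 1 locus that carries no other gene name. RNA-seq had been made from 2 libraries of cells stably transduced with PRDM16 lentivirus and 2 libraries of cells stably transduced with a control vector, to see what PRDM16 overexpression does to the transcriptome. Both groups are stably transduced cultures, and the sources used here do not give the promoter of the vector, the form of PRDM16 it carries or whether a culture was a clone or a pool. Nothing in the labels shows that replicates came from separate cultures. Each p thus reflects library-to-library spread alone, of the gene and of other loci in the fit, and that spread may be technical.

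PRDM proteins are zinc finger regulators of transcription that share a PR domain, a relative of the SET domain found in histone lysine methyltransferases. Some family members have methyltransferase activity of their own, and others act mainly by bringing corepressors and other enzymes to DNA. PRDM16 is known for directing brown fat identity and for roles in blood stem cells, arteries and craniofacial development, and MECOM is its closest relative. Both genes are known to give long forms with the PR domain and short forms without it, which a single value per locus adds together.

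Values are FPKM, which scale fragments by transcript length and by library size, between 23138 and 24490 loci were above 0 in each library, and the number of reads is unknown. The spread between replicates was unequal, with a median absolute log2 difference of 0.098 between the PRDM16 libraries and 0.19 between the control vector libraries. The renal lineage gene PAX8 was at 190.3 and 169 FPKM in PRDM16 libraries, against 202 and 208 FPKM in control vector libraries, and the mesenchymal filament gene VIM was between 3330 and 3455 FPKM in all 4. Of 6 tested renal markers, 2 had a higher mean in PRDM16 libraries (KRT8, and KRT18 in a locus with another name) and 4 a lower one, and none was called. The log2 changes ran from -0.62 (SE 0.29) for EPAS1 to 0.39 (SE 0.09) for KRT18. EPAS1 was at 74.0 and 63.6 FPKM in PRDM16 libraries, against 79.6 and 140.7 FPKM in control vector libraries. Control vector replicate 2 thus stood apart for EPAS1. The remaining renal marker, CA9, was below 1 FPKM on average. It was at 0.421 and 0.425 FPKM in PRDM16 libraries, against 0.394 and 0.629 FPKM in control vector libraries. All 8 leukocyte and plasma cell markers, all 4 endothelial markers and all 4 fat markers were below 1 FPKM on average. A listed 0 may be a failed estimate rather than absence, since the widely used methyltransferase gene EHMT2 is listed at 0 in all 4 libraries.

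PRDM16 itself was among the most abundant transcripts of the PRDM16 libraries and near the floor in the control vector libraries. It was at 1226 and 1146 FPKM in PRDM16 libraries, against 0.0157 and 0.234 FPKM in control vector libraries. The groups were far apart, and the PRDM16 libraries differed from each other by only 1.07-fold. In rank, PRDM16 stood at place 23 and 24 among all loci in PRDM16 libraries, against 21885 and 16602 in control vector libraries. It made up 0.214% and 0.200% of the summed FPKM of each PRDM16 library. The gene (XLOC_000077) is annotated as protein-coding on chromosome 1 of hg38, at 3069168 to 3438621 on the plus strand, and its locus value adds any transcript of the native gene to that of the vector.

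On the log2(FPKM + 1) scale the PRDM16 difference was 10.05 (SE 0.13, 95% interval 9.71 to 10.39, limma adjusted p = 0.000317). The added 1 holds this difference down, because the control level is far below 1 FPKM. On FPKM, the mean of the PRDM16 libraries was 75487 times control vector replicate 1 and 5059 times control vector replicate 2. The size of the fold is therefore set by a control level that cannot be placed precisely, whereas the direction held in every library. PRDM16 passed the low-value filter (a mean of at least 1 FPKM over the 4 libraries) only through the libraries that carry it.

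**Figure D1:**
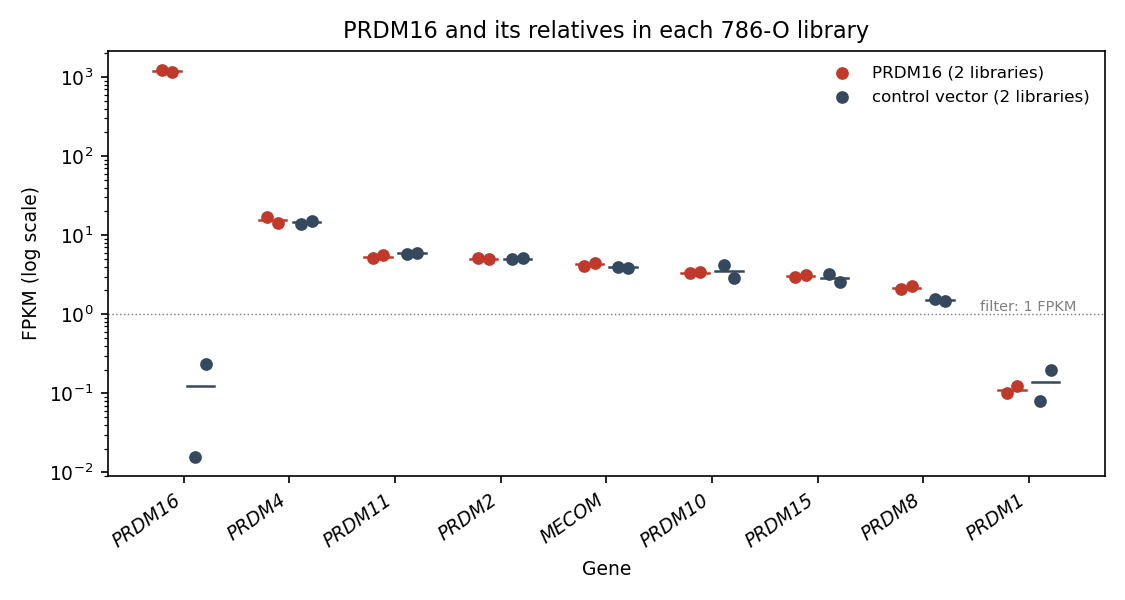
FPKM of the 9 genes in each library on a log axis, with PRDM16 libraries in red, control vector libraries in dark blue, 1 point per library and a short line for the group mean. PRDM16 lies at 1226 and 1146 FPKM in PRDM16 libraries and below 1 FPKM in both control vector libraries, while the means of the tested relatives differ by 1.43-fold (PRDM8) or less between the groups.

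The 8 relatives together were at nearly the same level in both groups. Their summed level was 39.7 and 38.3 FPKM in PRDM16 libraries, against 37.8 and 37.0 FPKM in control vector libraries, a mean of 39.0 ± 0.926 against 37.4 ± 0.562 FPKM (SD, n = 2 each). PRDM16 alone was thus 30.9 and 29.9 times the sum of its relatives in PRDM16 libraries. In control vector libraries the relatives summed to 2405 and 158 times the level of PRDM16. Over 17 PRDM family genes, PRDM16 held 96.1% and 96.0% of the summed FPKM in PRDM16 libraries, against 0.0338% and 0.489% in control vector libraries.

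**Figure D2:**
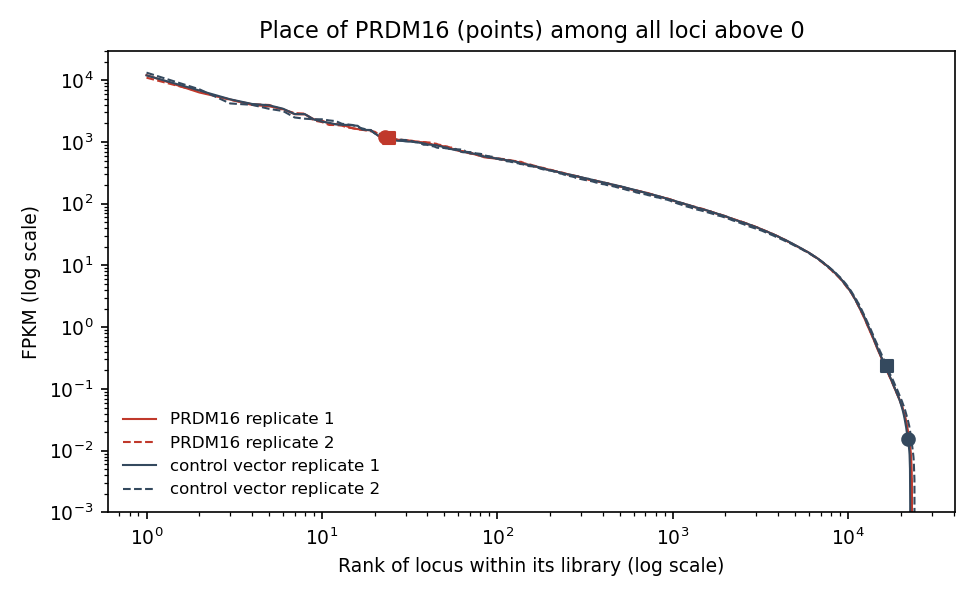
FPKM of every locus above 0 against its rank within its library, both on log axes, with 1 line per library and a point at PRDM16 (circle for replicate 1, square for replicate 2). The 4 curves run close together, and the PRDM16 point sits at places 23 and 24 in PRDM16 libraries, against 21885 and 16602 in control vector libraries.

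Of the 8 relatives, 7 passed the low-value filter and none was called at a limma adjusted p under 0.05. None of the 7 had an unadjusted p under 0.05 either. Over the whole table, 3 of 13246 tested loci (0.0226%) were called, PRDM16 among them. Leaving out PRDM16 replicate 2 gave 16 called loci, PRDM16 replicate 1 gave 18, control vector replicate 2 gave 30 and control vector replicate 1 gave 39, and in each case PRDM16 was the single called member. The median log2 change was 0.08 over the 7 relatives and 0.0040 over all tested loci. In absolute size the medians were 0.10 and 0.13, so absolute differences of the relatives were close in size to those of the table at large. For 2 relatives, PRDM8 and MECOM, the lower PRDM16 library exceeded the higher control vector library, which was so at 21.1% of all tested loci. For 1 relative, PRDM11, the order was the opposite without overlap, which was so at 20.3% of all tested loci.

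MECOM, the paralog of PRDM16, encodes a nuclear regulator known from blood stem cells and from leukaemias in which it is switched on. It was at 4.08 and 4.44 FPKM in PRDM16 libraries, against 4.01 and 3.82 FPKM in control vector libraries. The libraries did not overlap, but the gap between the nearest libraries was small beside the distance within either group. The log2 change was 0.10 (SE 0.11, 95% interval -0.20 to 0.40, limma adjusted p = 0.763), a range of 0.869-fold to 1.32-fold on FPKM + 1. In PRDM16 libraries PRDM16 was 300.3 and 258 times the level of MECOM, whereas MECOM was 255 and 16.3 times the level of PRDM16 in control vector libraries. MECOM (XLOC_037814) spans 580.1 kb of chromosome 3, at 169083499 to 169663618 on the minus strand of hg38, with 17 protein-coding transcripts in GENCODE release 29.

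PRDM8 showed the largest difference among the relatives. It encodes a nuclear repressor known in mouse for its part in neural circuits and the retina. PRDM8 was at 2.07 and 2.24 FPKM in PRDM16 libraries, against 1.55 and 1.46 FPKM in control vector libraries. Both PRDM16 libraries were higher, and the mean was 2.16 ± 0.126 against 1.51 ± 0.0660 FPKM (SD, n = 2 each), 1.43-fold on FPKM. The log2 change was 0.33 (SE 0.14, 95% interval -0.03 to 0.70, limma adjusted p = 0.689) and did not pass. A larger absolute change was found at 12.4% of tested loci. Among all alternatives the adjusted p of PRDM8 was between 0.176 and 1, and its log2 change stayed positive, from 0.29 to 0.49. Its unadjusted p was under 0.05 in 3 alternatives, at 0.0237 without a variance trend, 0.0433 after quantile normalization and 0.0489 without control vector replicate 1, and in these the limma adjusted p was 0.704, 0.695 and 0.176. Of 4 neuronal markers, 1 (STMN2) is listed at 0 in all libraries, and the 4 summed to 5.50 and 6.20 FPKM in PRDM16 libraries, against 7.83 and 10.7 FPKM in control vector libraries. Among them SYT1 was at 2.06 and 1.87 FPKM in PRDM16 libraries, against 4.09 and 6.57 FPKM in control vector libraries. SYT1 was not called (log2 change -1.07, SE 0.22, limma adjusted p = 0.689). SNAP25 and RBFOX3 overlapped between the groups, SNAP25 with the higher and RBFOX3 with the lower mean in PRDM16 libraries. The lower sum thus rested mainly on SYT1. The part of neuronal transcripts in the PRDM8 values was not tested. The PRDM8 locus (XLOC_038710) is annotated on chromosome 4, plus strand, from 80183879 to 80204329.

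PRDM11, which encodes a family member known to carry the PR domain without the long array of zinc fingers seen in its relatives, had the lower mean in PRDM16 libraries. It was at 5.12 and 5.54 FPKM in PRDM16 libraries, against 5.81 and 5.97 FPKM in control vector libraries. Both PRDM16 libraries were lower, by a mean of 5.33 ± 0.301 against 5.89 ± 0.115 FPKM (SD, n = 2 each). On the log2 scale this came to -0.12 (SE 0.11, 95% interval -0.40 to 0.15, limma adjusted p = 0.707), which was not called. Changes of larger absolute size were found at 53.1% of tested loci. As these are bulk samples, fewer cells expressing a gene and less RNA per cell cannot be told apart, here or at any other gene. The PRDM11 locus (XLOC_007801) is on chromosome 11, plus strand, from 45095806 to 45235110.

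The sequences at the start of these 3 relatives are shown because they are the relatives whose groups did not overlap. Each is the first start listed for the gene by RefSeq on GRCh38.p14, from 250 bases before to 50 bases after the start, at chr4:80185020-80185319 on the plus strand for PRDM8, chr3:169663663-169663962 on the minus strand for MECOM and chr11:45146389-45146688 on the plus strand for PRDM11. Capitals mark a match on either strand to GAAAG, the core of the site known for PRDM1, and AAGATAA, searched too, had no match to mark.
PRDM8: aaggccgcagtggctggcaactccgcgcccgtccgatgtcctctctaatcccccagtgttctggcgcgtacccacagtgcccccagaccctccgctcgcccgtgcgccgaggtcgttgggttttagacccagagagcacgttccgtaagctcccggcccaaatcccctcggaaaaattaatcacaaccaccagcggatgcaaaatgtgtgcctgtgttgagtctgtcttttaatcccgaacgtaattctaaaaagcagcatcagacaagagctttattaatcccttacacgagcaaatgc
MECOM: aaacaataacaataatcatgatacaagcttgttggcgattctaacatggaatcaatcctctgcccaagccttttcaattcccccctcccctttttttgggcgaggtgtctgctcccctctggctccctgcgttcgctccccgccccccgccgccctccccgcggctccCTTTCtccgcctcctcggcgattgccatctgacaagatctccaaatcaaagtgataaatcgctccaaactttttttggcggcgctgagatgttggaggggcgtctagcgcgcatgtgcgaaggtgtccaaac
PRDM11: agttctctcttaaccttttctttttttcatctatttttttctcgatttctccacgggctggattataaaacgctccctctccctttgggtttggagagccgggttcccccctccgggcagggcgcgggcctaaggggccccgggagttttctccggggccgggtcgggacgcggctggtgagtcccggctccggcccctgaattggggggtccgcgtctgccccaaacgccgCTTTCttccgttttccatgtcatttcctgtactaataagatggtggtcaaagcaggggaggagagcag

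PRDM8 had no match in this window, and MECOM and PRDM11 had 1 each. Over all starts listed for the 8 members in the RefSeq table, GAAAG was found in 8 of 20 windows (40%), against 54.7% of 35116 windows of the same length in that table. AAGATAA, a core of the site known for MECOM, was searched on both strands and was in none of the 20 windows, against 3.26% of all windows. At so low a share, 20 windows from 8 genes are too few to show that members lack it. The PRDM8, MECOM and PRDM11 windows held 21, 19 and 20 CpG, where the median of all windows was 14. Their share of G or C was 54.7%, 54.7% and 57.7%, below the median of 58.7%. First starts of the other relatives held from 13 CpG (PRDM10) to 49 CpG (PRDM15). A match is a run of letters and not a measured site.

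PRDM2 had the smallest difference of the tested relatives. PRDM2, also known as RIZ, encodes a methyltransferase of histone H3 that is known as a candidate tumour suppressor. It was at 5.09 and 4.97 FPKM in PRDM16 libraries, against 4.98 and 5.08 FPKM in control vector libraries. These libraries interleaved, with means of 5.03 ± 0.0851 in PRDM16 and 5.03 ± 0.0646 FPKM in control vector libraries (SD, n = 2 each). Its change was 0.00058 on the log2 scale (SE 0.10, limma adjusted p = 0.998), and the 95% interval of -0.27 to 0.27 allows 0.829-fold to 1.21-fold on FPKM + 1. PRDM2 (XLOC_000216) shares chromosome 1 with PRDM16, at 13700198 to 13825079 on the plus strand.

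PRDM4, which encodes a partner of the arginine methyltransferase PRMT5 in neural progenitors of mouse, was the most abundant relative. It was at 16.9 and 14.4 FPKM in PRDM16 libraries, against 13.9 and 15.1 FPKM in control vector libraries. The groups overlapped, since PRDM16 replicate 2 lay below control vector replicate 2. The log2 change was 0.10 (SE 0.12, 95% interval -0.21 to 0.41, limma adjusted p = 0.759), and it was -0.0037 without PRDM16 replicate 1. PRDM4 (XLOC_012985) maps to chromosome 12, minus strand, from 107732866 to 107761272.

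**Figure D3:**
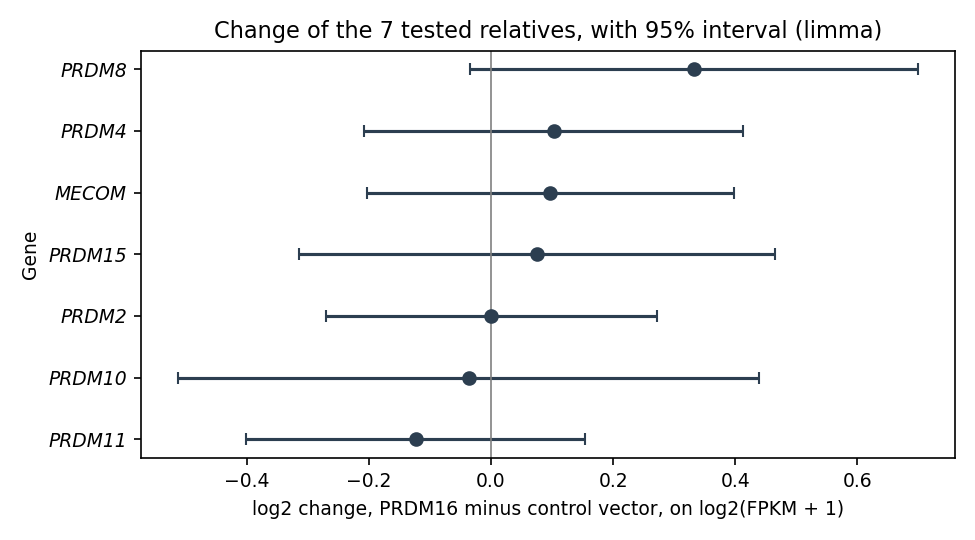
Log2 change of the 7 tested relatives, PRDM16 minus control vector on log2(FPKM + 1), with the 95% interval of the limma fit as bars and a line at no change. The interval crosses 0 for each of the 7, and it comes nearest to leaving it for PRDM8, at -0.03 to 0.70.

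PRDM10 and PRDM15 varied more between the control vector libraries than between the groups. PRDM10 encodes a zinc finger protein known to drive FLCN, the gene mutated in Birt-Hogg-Dubé syndrome, in which kidney tumours arise. It was at 3.32 and 3.40 FPKM in PRDM16 libraries, against 4.18 and 2.86 FPKM in control vector libraries. Both PRDM16 libraries lay between the control vector libraries, which differed 1.46-fold. The log2 change was -0.04 (SE 0.18, 95% interval -0.51 to 0.44, limma adjusted p = 0.951), and it moved to 0.18 when control vector replicate 1 was left out and to -0.25 when control vector replicate 2 was. PRDM10 (XLOC_010414) maps to chromosome 11, minus strand, from 129899706 to 130002835. FLCN shares its locus with other gene names and was at 31.1 and 27.7 FPKM in PRDM16 libraries, against 29.5 and 34.5 FPKM in control vector libraries, and these overlapped too.

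PRDM15 encodes a zinc finger protein known in mouse embryonic stem cells to steer WNT and MAPK signalling. It was at 2.99 and 3.18 FPKM in PRDM16 libraries, against 3.24 and 2.54 FPKM in control vector libraries. Again the PRDM16 libraries lay between the control vector libraries, which differed 1.28-fold. The log2 change was 0.08 (SE 0.15, 95% interval -0.31 to 0.46, limma adjusted p = 0.866). Its sign turned to -0.06 without control vector replicate 2, and the change was 0.21 without control vector replicate 1. PRDM15 (XLOC_033791) maps to chromosome 21, minus strand, from 41798225 to 41879482.

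PRDM1, also known as BLIMP1, is the regulator of plasma cell differentiation and was the lowest of the 9 genes in PRDM16 libraries. It was at 0.101 and 0.122 FPKM in PRDM16 libraries, against 0.0802 and 0.196 FPKM in control vector libraries. The groups overlapped and the mean was below the filter, so PRDM1 was not tested with the other loci. A fit without the filter gave PRDM1 -0.03 on the log2 scale (SE 0.06, limma adjusted p = 0.876), on a scale where the added 1 is larger than the values themselves. Leukocyte and plasma cell markers summed to 0.492 and 0.374 FPKM over 8 genes in PRDM16 libraries, against 0.360 and 0.3003 FPKM in control vector libraries, and CD3E and MS4A1 are listed at 0 throughout. The locus of PRDM1 (XLOC_044439) is on chromosome 6, plus strand, from 106086320 to 106109939.

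**Figure D4:**
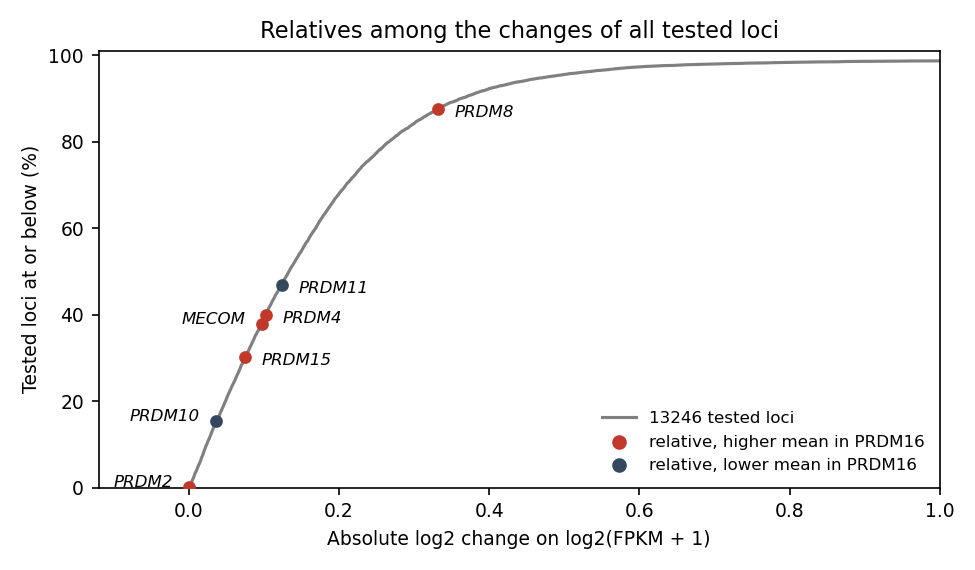
Share of the 13246 tested loci at or below each absolute log2 change (grey line), with the 7 tested relatives as points, red for a higher and dark blue for a lower mean in PRDM16 libraries. Points low on the curve differ less than most loci, and PRDM8 is the highest point, with larger changes at 12.4% of loci.

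By FPKM over all 4 libraries, PRDM4 led the relatives at 15.1 ± 1.30 FPKM (SD over 4 libraries, both groups), followed by PRDM11 at 5.61 ± 0.374, PRDM2 at 5.03 ± 0.0617 and MECOM at 4.09 ± 0.259 FPKM. The ranges of these first 4 genes did not overlap from 1 to the next. MECOM and PRDM10 (3.44 ± 0.548 FPKM) overlapped, as did PRDM10 and PRDM15 (2.99 ± 0.319 FPKM), so their order is not set beyond the spread. PRDM8 (1.83 ± 0.384 FPKM) and PRDM1 (0.125 ± 0.0504 FPKM) followed with separate ranges. Even PRDM4 was modest in abundance, with 53.2% of tested loci at a lower mean, and PRDM8 had 9.44% of tested loci below it.

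Other genes of the family were low or overlapped between the groups. ZNF408, a family member known from retinal disease, was at 6.76 and 7.03 FPKM in PRDM16 libraries, against 5.97 and 7.54 FPKM in control vector libraries. The PRDM16 libraries lay between the control vector libraries, and ZNF408 was not called (limma adjusted p = 0.940). In this list 6 genes were below the filter, and PRDM7 and PRDM14 are listed at 0 throughout. PRDM9, the meiotic recombination factor, and PRDM13 were above 0 in 1 library each, at 0.0135 FPKM in PRDM16 replicate 2 and at 0.00892 FPKM in control vector replicate 2. PRDM12, known from pain-sensing neurons, was at 0.184 and 0.145 FPKM in PRDM16 libraries, against 0.0729 and 0.288 FPKM in control vector libraries. PRDM6, known from smooth muscle, was at 0.0420 and 0.0052 FPKM in PRDM16 libraries, against 0.401 and 0.135 FPKM in control vector libraries. Both PRDM16 libraries of PRDM6 were lower, and at this level the difference was not tested.

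SET domain methyltransferases, the enzymes to which the PR domain is related, included none that was called. Of 16 genes, 15 were tested, 7 with a higher and 8 with a lower mean in PRDM16 libraries, and the median log2 change was -0.04 (range -0.34 to 0.32). The groups did not overlap in 7 of the 15, with PRDM16 libraries higher in 2 and lower in 5, beside the 21.1% and 20.3% of all tested loci. NSD1, which methylates lysine 36 of histone H3, was at 15.7 and 14.0 FPKM in PRDM16 libraries, against 18.7 and 18.0 FPKM in control vector libraries (log2 change -0.29, SE 0.10, limma adjusted p = 0.689). SETDB1, which trimethylates lysine 9 of histone H3, was at 12.3 and 11.3 FPKM in PRDM16 libraries, against 12.6 and 13.4 FPKM in control vector libraries. SUV39H2, another lysine 9 enzyme, was at 17.5 and 20.3 FPKM in PRDM16 libraries, against 18.4 and 12.1 FPKM in control vector libraries, so that control vector replicate 2 stood apart. EZH2, the Polycomb methyltransferase, had the same pattern, at 23.9 and 25.2 FPKM in PRDM16 libraries, against 25.7 and 17.7 FPKM in control vector libraries.

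Genes known as targets of family members in other cells were not called either. Of 10 genes, 6 were tested, 4 with a higher and 2 with a lower mean in PRDM16 libraries, with a median log2 change of 0.15 and a lowest limma adjusted p of 0.689. MYC, which PRDM1 is known to repress in B cells, was at 88.1 and 77.7 FPKM in PRDM16 libraries, against 68.4 and 67.5 FPKM in control vector libraries. The log2 change of MYC was 0.28 (SE 0.10, limma adjusted p = 0.689). Of the 6, MYC and CCNE1 were higher in PRDM16 libraries without overlap, beside 21.1% of all tested loci, and none was lower without overlap. ID3 had the largest change, at 0.60 (limma adjusted p = 0.690), and its libraries overlapped. CDH11, in a locus with another name, was at -0.06 and overlapped too. CCNE1, a cyclin that PRDM4 is known to repress in mouse neural progenitors, was at 5.75 and 6.66 FPKM in PRDM16 libraries, against 5.61 and 3.996 FPKM in control vector libraries. GATA2, which MECOM is known to activate in blood stem cells, was at 2.91 and 2.61 FPKM in PRDM16 libraries, against 2.95 and 2.43 FPKM in control vector libraries. CIITA, RSPO1 and SPRY1 were below the filter.

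Of the genes beside PRDM16 on chromosome 1, the 3 that were tested did not share its level. ACTRT2 and PRXL2B (under its older name FAM213B) are listed at 0 in all 4 libraries. LINC00982, the non-coding transcript that runs divergently from the PRDM16 start, is listed at 0 too. Such a 0 may be a failed estimate, so the level of these is not known. ARHGEF16 was at 4.78 and 4.995 FPKM in PRDM16 libraries, against 5.05 and 4.97 FPKM in control vector libraries. TPRG1L was at 21.9 and 22.7 FPKM in PRDM16 libraries, against 21.1 and 22.2 FPKM in control vector libraries. MEGF6 was at 16.8 and 17.8 FPKM in PRDM16 libraries, against 21.5 and 24.1 FPKM in control vector libraries, without overlap and without a call (log2 change -0.38, SE 0.10, limma adjusted p = 0.689).

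The loci most like PRDM16 were ranked by their log2 change over the 4 libraries, among loci with 1 name whose PRDM16 libraries were both higher. The same values chose these loci and gave their p-values, so the p-values add no support. AL132768.1, a clone-named locus, came next to PRDM16 with a log2 change of 7.44 (limma adjusted p = 0.0308), at 239 and 126 FPKM in PRDM16 libraries and listed at 0 in both control vector libraries. Its call was lost without control vector replicate 1 (adjusted p = 0.0858), without control vector replicate 2 (0.123) and without the low-value filter (0.526), among adjusted p-values from 0.0055 to 0.526 by limma. The next in order was RP11-138I1.4, with a log2 change of 3.38, at 33.6 and 90.4 FPKM in PRDM16 libraries, against 0.00075 and 28.1 FPKM in control vector libraries. For RP11-138I1.4 leaving out control vector replicate 1 gave 0.95 and leaving out control vector replicate 2 gave 5.81, so this locus rests on single libraries. AC007279.1 followed with a log2 change of 2.36 (limma adjusted p = 0.101), at 3.94 and 4.31 FPKM in PRDM16 libraries and listed at 0 in both control vector libraries. AL132768.1, AC007279.1 and SNORA70 are listed at 0 in both control vector libraries, so they passed the low-value filter only through PRDM16 libraries. Against a listed 0, which may be a failed estimate, the size of such a change depends on the added 1. AC007279.1 was called in 1 alternative, the fit without a variance trend (adjusted p = 0.0398). SNORA70 and AL162151.3 had log2 changes of 2.16 and 2.12, each at a limma adjusted p of 0.689. Single libraries weighed on these as well, since SNORA70 was at 1.34 with PRDM16 replicate 1 left out, and AL162151.3 was at 1.19 with control vector replicate 1 left out and at 3.05 with control vector replicate 2 left out. None of the 5 bears the name of a PRDM gene or of another gene in the lists above.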

How the data were processed

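RNA-seq had been made from total RNA of 786-O cells, with 2 PRDM16 and 2 control vector libraries grouped by the vector in the labels. The submitters' processing notes name TopHat2 2.1.0, Cufflinks 2.2.1 and Cuffdiff with Trim Galore and the build hg38. The sources used here do not give annotation, filters, scaling or strand handling, so a value may include antisense reads. The authors' deposited values were read as FPKM from those tools and from their size, since the header names no unit.

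The whole table was fitted with limma 3.58.1 in R 4.3.3 on log2(FPKM + 1), for loci with a mean of at least 1 FPKM, with a variance trend, two-sided, with Benjamini-Hochberg adjustment over 13246 loci. The script was tested on simulated data. The limma fit draws the spread of each locus towards that of other loci at a similar level, so no SE comes from 1 locus alone. An exact permutation test of 2 against 2 libraries cannot go below p = 0.333. Coordinates are from GENCODE release 29 (GRCh38, which hg38 denotes) and promoters from RefSeq (GRCh38.p14), where 8 of the 9 members matched. Older gene names were matched through RefSeq synonyms. Depth relative to control vector replicate 1, from the lowest values, was 1.26 and 1.17 in PRDM16 replicates 1 and 2 and 1.39 in control vector replicate 2. Tables and plots were made with Python 3.11.15, pandas 2.3.3, numpy 2.4.6 and matplotlib 3.10.9.

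The members and lists were chosen with earlier results of these data known. Genes were named if they were members, or from the lists if at a mean of at least 1 FPKM or listed at 0 (examples are given for long lists), together with the 5 loci of largest change after PRDM16. PRDM6, PRDM9, PRDM12, PRDM13, CIITA, RSPO1, SPRY1, CA9 and LINC00167, all at lower means, were named after their values were seen. Some genes of the lists are not reported here.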

Additional observations from a re-analysis of the deposited data

How the results depend on the processing

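PRDM16 is the transduced gene, so its call checks the transduction. With 2 libraries in each group its limma adjusted p was at most 0.0375. It was called in all 14 alternatives, between 9.85 on the log2 scale (quantile normalization) and 12.56 (pseudocount 0.1). In none of them was a tested relative called (limma adjusted p from 0.176 to 1), and MECOM, PRDM8 and PRDM11 kept their signs. PRDM2 was at -0.0036 after median-of-ratios scaling and PRDM10 at 0.0063 after quantile normalization. Leaving out 1 library gave MECOM 0.05 to 0.15, PRDM11 -0.17 to -0.08, PRDM2 -0.014 to 0.015, PRDM4 -0.0037 to 0.21, PRDM10 -0.25 to 0.18, PRDM15 -0.056 to 0.21 and PRDM1 -0.11 to 0.04. With a pseudocount of 0.1, PRDM1 was at -0.13. The number of called loci was 5 with that pseudocount, 1 without a filter, 6 without a variance trend and 16 to 39 with 1 library left out, where a lone library is assumed to vary like the other group. A replicate block gave 5, with PRDM16 the single called member. Deviations of same-numbered libraries had a correlation of -0.058, which does not settle whether those libraries were paired. The cause of these shifts was not tested. The summed relatives differed by 0.06 on the log2 scale (0.04 to 0.09 with 1 library left out). Scaling from all tested loci gave 0.062 with equal medians and 0.056 with median-of-ratios scaling. Quantile normalization was not run for that sum. With a mean of at least 5 FPKM, MECOM, PRDM8, PRDM10 and PRDM15 were not tested. Count-based tools were not run, as the values are not counts. Reads are unknown, so values near the floor, PRDM1 and PRDM16 in the control vector among them, carry no counting interval.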

Other observations

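The PRDM16 values of the control vector libraries, 0.0157 and 0.234 FPKM, differed, but both are near the floor and carry no counting interval. Control vector replicate 2 was at 14.9 times the listed level of control vector replicate 1. The depth of replicate 2 from the lowest values was 1.39 times that of replicate 1, and its part in this difference was not tested. Set against the mean of the PRDM16 libraries, the 2 control levels were 0.00132% and 0.0198%. PRDM10 also stood 1.46-fold apart between these libraries, and PRDM15 1.28-fold, both lower in replicate 2. PRDM1, also near the floor, was 2.44-fold higher in replicate 2. LINC00167, the RefSeq synonym of PRDM10-DT beside PRDM10, was at 0 and 0.0577 FPKM in PRDM16 libraries, against 0 and 0.0162 FPKM in control vector libraries.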
